A study of Mus musculus with 2 samples.

Results

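The genes described here were 10 C-type lectins of myeloid cells, Clec4a1, Clec4a2, Clec4a3, Clec4d, Clec4e, Clec4n, Clec7a, Clec9a, Clec10a and Clec12a. They were chosen by gene symbol from the 31053 genes of a single-cell RNA sequencing matrix, and 9 of the 10 had a row in it. Clec7a, which encodes the beta-glucan receptor Dectin and is annotated as a polymorphic pseudogene in the GENCODE annotation used here, was not analysed here. The cells were live leucocytes, stained for CD45 and for the dead-cell dye 7-AAD and sorted from tumours of B16, a melanoma line from C57BL/6 mice, in animals 8 weeks old. The WT mice carried Mettl3 fl/fl alleles and Lyz2+/+ and were Cre-negative littermates. The KO mice carried Mettl3 fl/fl and Lyz2 cre/+, so that 1 Lyz2 allele held the recombinase, and both groups shared the floxed Mettl3 alleles and the tumour line. Lyz2 drives Cre in monocytes and macrophages, in most granulocytes and in few dendritic cells. Cells from several mice made up each library, and there was 1 library for each genotype. No spread between mice could be measured, so no test was run, and each difference compares these 2 libraries and not the genotypes. The study asked how loss of the RNA methyltransferase METTL3 in myeloid cells shapes the immune cells of the tumour.

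C-type lectin receptors are surface proteins with which myeloid cells recognise sugars, glycolipids and remains of dead cells. Clec4e (Mincle), Clec4d (MCL) and Clec4n, a receptor for fungal mannans, activate cells through the adaptor Fcer1g, the kinase Syk and the adaptor Card9, a route to the release of cytokines and neutrophil chemokines. Clec4a2 (DCIR) and Clec12a (MICL) are inhibitory receptors that recruit phosphatases, and Clec4a1 and Clec4a3 are close relatives of Clec4a2. Clec9a (DNGR) of cross-presenting dendritic cells binds actin filaments exposed by dead cells, and Clec10a (MGL) binds galactose and N-acetylgalactosamine.

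In GRCm38, 9 of the 10 genes lie on chromosome 6. A stretch of 368 kb held 6 of them in the order Clec4a1, Clec4a3, Clec4a2, Clec4n, Clec4d and Clec4e, and a second stretch of 130 kb held Clec12a, Clec9a and Clec7a. Clec10a (ENSMUSG00000000318) lies on chromosome 11 from 70156197 to 70170834 on the plus strand. On chromosome 6, Clec4d (ENSMUSG00000030144, 123262111 to 123275265, plus strand) and Clec4e (ENSMUSG00000030142, 123281789 to 123289870, minus strand) end 6523 bp apart and point towards each other. An exon of Clec9a (ENSMUSG00000046080, 129408862 to 129424763, plus strand) overlaps an exon of Clec1b on the same strand, so the counts of both are uncertain. The Clec4a genes are paralogs, and whether reads were shared between them was not tested. The 250 bases before the start site are shown for the neighbours Clec4d and Clec4e, which had their highest levels in the same cells, and for the neighbours Clec9a and Clec12a, which did not. The windows are chr6:123261857-123262106 (plus strand), chr6:123289872-123290121 (minus strand), chr6:129408612-129408861 (plus strand) and chr6:129349994-129350243 (plus strand). They are RefSeq sequences read 5′ to 3′ along each gene, and capitals mark matches on either strand to the ETS-type core GAGGAA, the C/EBP-type TTGCNNAA, the AP-1-type TGANTCA and the TATA-type TATAAA. An IRF-type motif was also searched and had no match in these windows. The Clec12a window lies before a start site inside the annotated span of the gene.
Clec4d: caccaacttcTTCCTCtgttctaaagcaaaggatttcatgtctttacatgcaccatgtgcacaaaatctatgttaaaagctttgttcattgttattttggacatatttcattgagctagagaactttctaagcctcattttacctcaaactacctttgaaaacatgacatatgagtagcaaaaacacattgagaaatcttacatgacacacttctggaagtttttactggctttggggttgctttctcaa
Clec4e: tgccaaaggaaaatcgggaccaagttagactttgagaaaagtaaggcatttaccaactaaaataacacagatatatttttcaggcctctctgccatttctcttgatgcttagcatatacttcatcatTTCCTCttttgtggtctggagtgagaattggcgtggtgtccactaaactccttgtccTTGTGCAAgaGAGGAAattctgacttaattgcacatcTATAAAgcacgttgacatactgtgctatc
Clec9a: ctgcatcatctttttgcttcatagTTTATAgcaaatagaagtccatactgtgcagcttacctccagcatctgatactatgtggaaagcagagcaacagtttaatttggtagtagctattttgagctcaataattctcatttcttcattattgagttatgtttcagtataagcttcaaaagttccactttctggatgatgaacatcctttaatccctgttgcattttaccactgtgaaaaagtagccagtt
Clec12a: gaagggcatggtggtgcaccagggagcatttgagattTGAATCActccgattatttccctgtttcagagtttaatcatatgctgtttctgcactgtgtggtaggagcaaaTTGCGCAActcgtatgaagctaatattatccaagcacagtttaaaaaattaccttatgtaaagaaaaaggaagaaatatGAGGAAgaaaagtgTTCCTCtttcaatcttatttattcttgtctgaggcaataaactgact
Clec4e had 2 matches to GAGGAA, 1 to TTGCNNAA that starts 66 bases before the start site, and 1 to TATAAA 29 bases before it. Clec12a had 2 matches to GAGGAA, 1 to TGANTCA and a TTGCNNAA match that reads on both strands. Clec4d had 1 match to GAGGAA, and Clec9a had 1 to TATAAA on the opposite strand. Of 32851 promoter windows of the same length, 23.3% held the ETS-type core, 9.56% the C/EBP-type, 6.75% the AP-1-type, 2.98% the IRF-type and 12.4% the TATA-type motif. A match is a run of letters and not a measured binding site.

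The library labelled WT held 5895 barcodes with 45963969 unique molecular identifiers (UMIs, which count RNA molecules), and the library labelled KO held 8446 barcodes with 54052317 UMIs. Filters left 5661 and 8157 cells with a median of 4354 and 3740 UMIs, and 13 barcode sequences occurred in both libraries. Cells were assigned to classes by marker genes that include none of the lectins. Macrophage-like cells numbered 1897 in the library labelled WT and 2339 in that labelled KO, monocyte-like cells 1070 and 2775, and granulocyte-like cells 508 and 222. There were 137 and 112 cDC1-like, 96 and 118 cDC2-like, 117 and 162 mature DC-like, 88 and 109 plasmacytoid DC-like and 649 and 772 T or NK-like cells. The 10 genes with the highest fold in each class included at least 2 of its own 8 markers and none of another class. Since these markers set the classes, this is no separate check of the names. Mettl3 was measured first, because it checks the labels, and it was not lower in the library labelled KO. Levels are given as CPM, the UMIs of a gene per 1000000 UMIs of its class, and pairs of values name the library labelled WT first. Mettl3 was at 9.29 and 10.3 CPM in macrophage-like cells and at 9.68 and 10.9 CPM in monocyte-like cells. Counts from the 3′ end do not show whether a floxed exon is missing from an RNA. The groups are therefore called the libraries labelled WT and KO. Lyz2, which carries Cre on 1 allele in the KO mice, was lower in the library labelled KO, at 5897 against 2660 CPM in macrophage-like cells and 9135 against 3570 CPM in monocyte-like cells. Intervals are at the 95% level and hold counting error alone. They are exact Poisson for levels, exact conditional binomial for ratios and Clopper-Pearson for shares.

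The lectins were found in 3 patterns over the classes. Clec4a1, Clec4a2, Clec4a3 and Clec4n were highest in macrophage-like and monocyte-like cells, Clec4d and Clec4e were highest in granulocyte-like cells, and Clec9a and Clec10a were highest in dendritic cell classes. Clec12a was highest in macrophage-like cells, with intervals apart from the next class in both libraries. It was also spread over monocyte-like, cDC1-like and plasmacytoid DC-like cells. These orders were the same in both libraries for the leading class of 7 of the 9 genes, and the exceptions were Clec4a1 and Clec10a.

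Clec4a2, the inhibitory receptor, reached 253 CPM (interval 247 to 260) in macrophage-like cells labelled WT and 217 CPM (211 to 223) in those labelled KO. Monocyte-like cells held 218 and 195 CPM, cDC2-like cells 87.5 and 101 CPM, and cDC1-like cells 51.0 and 42.7 CPM. In T or NK-like cells, which should lack these lectins and serve as a background level, Clec4a2 was at 12.6 and 12.9 CPM. Macrophage-like cells thus led and monocyte-like cells followed, with intervals apart in both libraries. Clec4a1 was at 238 CPM in macrophage-like and 233 CPM in monocyte-like cells labelled WT, with overlapping intervals. In the library labelled KO the order was turned, at 214 and 228 CPM, with intervals apart. Clec4a3 differed from both relatives, since monocyte-like cells held more of it than macrophage-like cells in both libraries, with 295 against 208 CPM labelled WT and 264 against 203 CPM labelled KO. Its level in cDC2-like cells, 133 and 139 CPM, was also well above that in cDC1-like cells, 39.6 and 42.0 CPM. The monocyte markers summed to 1639 and 2095 CPM in cDC2-like cells, beside 1807 and 1866 CPM of the cDC2 markers. In cDC1-like cells the monocyte markers summed to 1167 and 1412 CPM. The part of the monocyte markers in the lectin levels of cDC2-like cells was not tested.

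Clec4e, the Mincle gene, was at 1516 CPM (1430 to 1606) in granulocyte-like cells labelled WT and at 737 CPM (637 to 847) in those labelled KO. Monocyte-like cells followed with 173 and 219 CPM, macrophage-like cells with 54.5 and 70.1 CPM and cDC1-like cells with 29.4 and 23.1 CPM. The first 3 classes stood apart from each other in both libraries. Clec4d, whose product pairs with Mincle, had the same order of classes, with 978 and 823 CPM in granulocyte-like, 181 and 219 CPM in monocyte-like and 152 and 175 CPM in macrophage-like cells. In the library labelled WT the level of Clec4d in granulocyte-like cells was 43.3 times that in T or NK-like cells, and that of Clec4e 117 times. Clec4n did not share this peak in granulocyte-like cells. It was highest in monocyte-like cells at 227 and 268 CPM, and its levels in macrophage-like (181 and 186 CPM), granulocyte-like (163 and 135 CPM) and cDC2-like cells (163 and 150 CPM) lay close together. In the library labelled WT the intervals of those 3 classes overlapped.

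Clec9a was highest in cDC1-like cells, the class that cross-presents antigen, with levels of 126 CPM (110 to 144) and 144 CPM (125 to 165). Plasmacytoid DC-like cells came next with 46.6 and 23.6 CPM, from only 15 and 9 UMIs. Macrophage-like cells held 2.55 and 3.03 CPM and T or NK-like cells 0.72 and 1.2 CPM. Clec10a was shared by cDC2-like cells, at 436 CPM (390 to 486) and 401 CPM (359 to 447), and plasmacytoid DC-like cells, at 391 and 440 CPM, and these neighbours overlapped in both libraries. Macrophage-like cells held 70.8 and 80.02 CPM of it and monocyte-like cells 69.3 and 62.1 CPM. Clec12a, the MICL gene, was at 278 and 308 CPM in macrophage-like, 152 and 175 CPM in monocyte-like, 134 and 148 CPM in cDC1-like and 190 and 139 CPM in plasmacytoid DC-like cells. The last 3 of these classes overlapped with each other in both libraries.

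**Figure D1:**
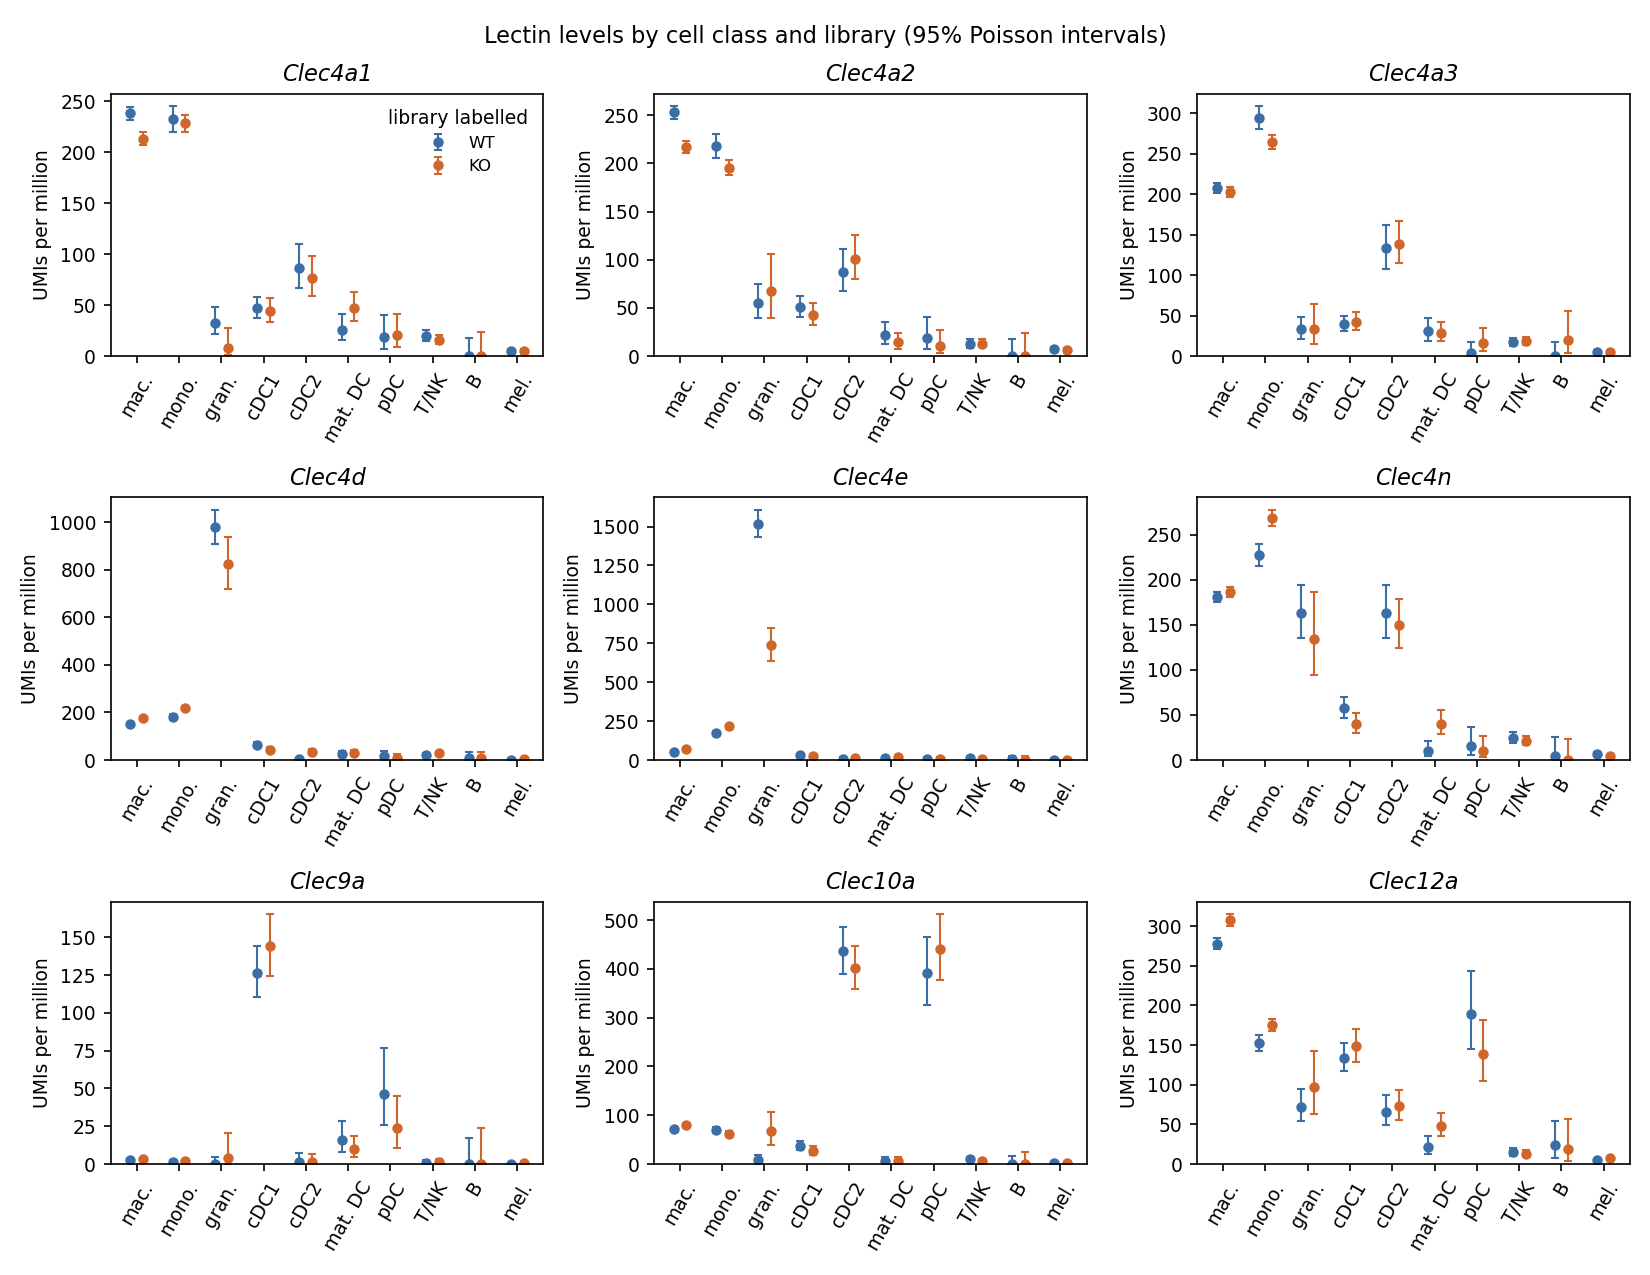
Each panel shows the level of 1 lectin in CPM (linear axis from 0) in 10 cell classes, with points for the libraries labelled WT (blue) and KO (orange) and bars for 95% Poisson intervals. The class names are shortened as mac. (macrophage-like), mono. (monocyte-like), gran. (granulocyte-like), mat. DC (mature DC-like), pDC (plasmacytoid DC-like), T/NK (T or NK-like), B (B-like) and mel. (melanoma-like). Clec4d and Clec4e peak in granulocyte-like cells, where Clec4e stands at 1516 and 737 CPM, Clec9a peaks in cDC1-like cells and Clec10a in cDC2-like and plasmacytoid DC-like cells.

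The share of cells with a UMI was compared next. Since macrophage-like cells had a median of 9666 and 7081 UMIs and granulocyte-like cells only 1331 and 1034, each cell was thinned to 1000 UMIs and shallower cells were left out, which removed 108 of 508 and 105 of 222 granulocyte-like cells. At this depth a Clec4e UMI was found in 57.0% (interval 52.0% to 61.9%) and 46.2% (36.9% to 55.6%) of granulocyte-like cells. Monocyte-like cells held one in 14.8% and 17.8%, macrophage-like cells in 5.08% and 7.16% and T or NK-like cells in 0.81% and 0.86%. For Clec4d the shares in granulocyte-like cells were 59.5% and 47.0%, against 1.63% and 2.58% of T or NK-like cells. Monocyte-like cells held a Clec4d UMI in 12.4% and 16.4% and macrophage-like cells in 13.2% and 14.3%, so in the library labelled WT this share did not follow the order by CPM, and no order is read from it. The same held for Clec4a1 in the library labelled KO, with 21.1% of macrophage-like and 19.3% of monocyte-like cells. Clec10a was found in 27.1% and 27.1% of cDC2-like cells and in 26.4% and 32.1% of plasmacytoid DC-like cells. Clec9a was found in 12.4% and 10.8% of cDC1-like cells at this depth and, before thinning, in 67.9% and 68.8% of them. Unthinned T or NK-like cells, with a median of 2322 and 1923 UMIs, held a Clec9a UMI in 0.31% and 0.39%. Before thinning, Clec4e was found in 62.0% and 47.3% of granulocyte-like, 40.9% and 40.6% of monocyte-like and 2.77% and 2.20% of T or NK-like cells.

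**Figure D2:**
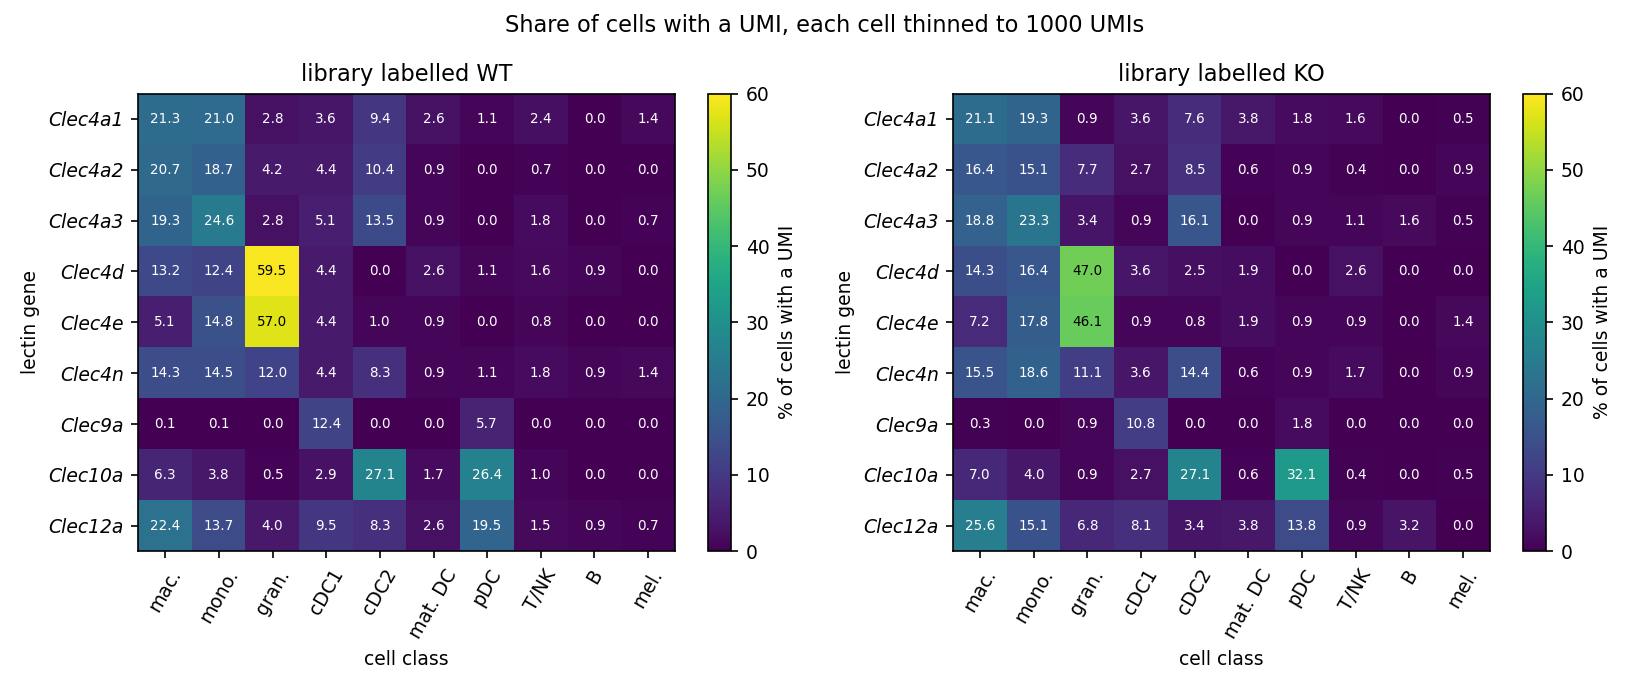
The heat maps show, for the libraries labelled WT (left) and KO (right), the percentage of cells with at least 1 UMI of each lectin (rows) in each class (columns), after thinning each cell to 1000 UMIs. Colour runs from 0 to 60%. Granulocyte-like cells stand out for Clec4d (59.5% and 47.0%) and Clec4e (57.0% and 46.2%), and T or NK-like cells stay at or below 2.58% for every lectin.

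The libraries were then compared within each class. A gene counted as different where its ratio of KO to WT was past 1.5-fold in either direction and the class held at least 30 of its UMIs. In macrophage-like cells none of the 9 lectins was past that fold, beside 6.32% of the 11977 genes measured in that class (3.04% higher and 3.28% lower in the library labelled KO). In monocyte-like cells none of the 9 was, beside 7.98% of 10605 genes (4.71% higher and 3.26% lower). The median log2 ratio of the lectins was 0.15 in macrophage-like and 0.16 in monocyte-like cells, and that of all genes 0.01 and 0.00. Smaller differences lay beyond counting error. Counting intervals lay above 0 for 4 of 9 lectins in each class and below 0 for 2 of 9. Over all genes the shares were 16.1% above and 13.3% below 0 in macrophage-like and 12.9% and 11.1% in monocyte-like cells, and such a share depends on the number of UMIs per gene. The Mincle and MCL genes were higher in the library labelled KO in both classes, Clec4e by a log2 ratio of 0.36 (0.25 to 0.47) in macrophage-like and 0.34 (0.23 to 0.45) in monocyte-like cells, and Clec4d by 0.21 (0.14 to 0.27) and 0.28 (0.17 to 0.38). In macrophage-like cells the value of Clec4d was 0.12 without the 5% of cells with the most UMIs and 0.09 with levels from thinned counts. Both lie below its interval. Clec12a was higher by 0.15 in macrophage-like and 0.20 in monocyte-like cells. Clec4n was higher in monocyte-like cells by 0.24 (0.15 to 0.33), and in macrophage-like cells its value of 0.04 had an interval that included 0. Clec10a was higher in macrophage-like cells by 0.18 (0.08 to 0.28), with -0.16 (-0.33 to 0.02) in monocyte-like cells. Clec4a2 was lower in the library labelled KO, by log2 ratios of -0.22 and -0.16. Clec4a1 was lower in macrophage-like cells (-0.16) and within counting error in monocyte-like cells (-0.03), and for Clec4a3 it was the reverse, at -0.03 and -0.16. The lectins with an interval above 0 were thus Clec4d, Clec4e, Clec10a and Clec12a in macrophage-like cells and Clec4d, Clec4e, Clec4n and Clec12a in monocyte-like cells, all within 1.5-fold. The levels of Clec9a, from 57 and 64 UMIs in macrophage-like and 9 and 22 in monocyte-like cells, were too imprecise to order. The 8 granulocyte markers summed to 1506 and 592 CPM in macrophage-like cells and to 1426 and 659 CPM in monocyte-like cells, with no marker at 0. The 8 monocyte markers summed to 1070 and 1464 CPM in macrophage-like cells, with none at 0, and so were higher in the library labelled KO together with Clec4d and Clec4e, of which monocyte-like cells held more. The part of these markers in the differences was not tested.

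**Figure D3:**
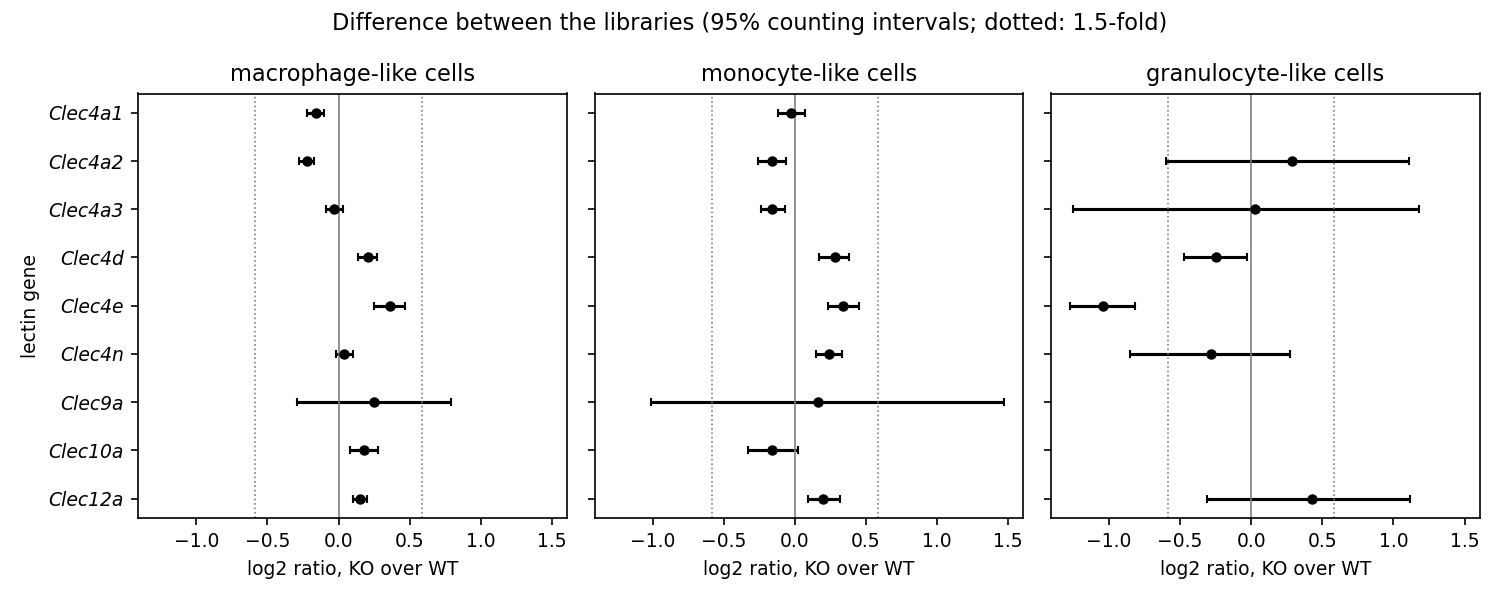
The log2 ratio of KO to WT (horizontal axis) is drawn for each lectin with at least 30 UMIs in macrophage-like, monocyte-like and granulocyte-like cells, with 95% counting intervals and dotted lines at 1.5-fold. Clec4e lies above 0 in macrophage-like (0.36) and monocyte-like cells (0.34) and below the lower dotted line in granulocyte-like cells (-1.04).

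In granulocyte-like cells 1 of the 6 lectins with enough UMIs was past the fold, beside 23.3% of 3346 genes in either direction, 14.6% higher and 8.7% lower. This was Clec4e, with 1153 UMIs in the library labelled WT and 197 in that labelled KO, a log2 ratio of -1.04 (-1.27 to -0.82). Clec4d was lower by less, with a log2 ratio of -0.25 (-0.47 to -0.03), and the intervals of these 2 neighbouring genes did not overlap. The log2 ratio of all genes in this class had a median of 0.12. Clec4n (-0.28), Clec4a2 (0.29), Clec4a3 (0.03) and Clec12a (0.43) had intervals that included 0. The value of Clec4n was not stable, at -1.09 with the stricter filter on cells and 0.21 with classes assigned on thinned counts, and at -0.89 in cells with a UMI of the neutrophil gene Retnlg and 0.20 in cells without one. Clec10a had 7 and 18 UMIs, and 16 of the 18 came from 1 cell. Clec4a1 had 25 and 2 UMIs.

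Cells with many Clec4e molecules were less frequent in the library labelled KO. In the library labelled WT 80 of 508 granulocyte-like cells (15.8%) held at least 5 Clec4e UMIs and the highest held 27, while in the library labelled KO 4 of 222 (1.8%) did and the highest held 5. After thinning to 1000 UMIs, at least 3 were found in 91 of 400 cells (22.8%) of the former library and in 12 of 117 (10.3%) of the latter. For Clec4d these shares were 11.3% and 8.55%. Clec4e was lower in each sub-group of the class. Among cells with a Retnlg UMI, Clec4e was at 1452 and 750 CPM, and among cells without one at 1673 and 700 CPM, with log2 ratios of -0.95 and -1.26. The Retnlg-positive share of the class was similar, at 63.2% and 65.3%. Without the cell with the most Clec4e UMIs in each library the log2 ratio was -1.05. The 8 granulocyte markers summed to 181300 and 169000 CPM in the class, the macrophage markers to 894 and 695 CPM and the monocyte markers to 484 and 748 CPM, with none of these markers at 0. The part of these markers in the result was not tested. From counts thinned to equal depth the log2 ratio was -0.91.

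Macrophage-like cells were divided by the MHC class II gene H2-Ab1. Clec4d was at 114 and 116 CPM in the cells above its median and at 185 and 242 CPM in those below it, with log2 ratios of 0.02 (-0.09 to 0.14) and 0.38 (0.30 to 0.47). Clec4a3 had the opposite order, with 234 and 237 CPM in the cells high in H2-Ab1 and 184 and 166 CPM in those low in it. Clec4e was higher in the library labelled KO on both sides of the median, by log2 ratios of 0.23 (0.08 to 0.38) and 0.49 (0.33 to 0.65), and Clec12a was at 296 and 338 CPM in the cells high in H2-Ab1 and 263 and 275 CPM in the others. The cells high and low in H2-Ab1 had similar depth, with a median of 9694 and 7277 UMIs against 9655 and 6821.

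Monocyte-like cells were divided by Ly6c2, the marker of classical monocytes. Among those with a Ly6c2 UMI the log2 ratio was 0.36 for Clec4d, 0.45 for Clec4e and 0.43 for Clec4n. Among cells without Ly6c2 it was 0.07, 0.10 and -0.05, each with an interval that included 0. Clec10a had a different pattern, with 51.3 and 58.0 CPM in Ly6c2-positive cells and 111 and 75.1 CPM in Ly6c2-negative ones. Clec10a also followed H2-Ab1, at 94.9 and 87.3 CPM in cells high in it and 26.0 and 24.8 CPM in cells low in it. Clec4n was at 276 and 302 CPM in the cells high in H2-Ab1 and at 146 and 218 CPM in those low in it, where the log2 ratio was 0.58. Cells with a UMI of Ace or Adgre4, genes of nonclassical monocytes, held the highest Clec4a3 level of these sub-groups, 340 and 342 CPM, and less Clec10a, 35.1 and 38.7 CPM. Depth differed between most sub-groups, and its part was not tested. The median was 4627 and 3814 UMIs in monocyte-like cells with Ly6c2 against 3971 and 3066 without, 5223 and 4253 in those high in H2-Ab1 against 3953 and 3178 in those low, and 1441 and 1103 in granulocyte-like cells with Retnlg against 1149 and 847 without. A division by 1 UMI of a gene also depends on depth. Differences between sub-groups were not tested.

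**Figure D4:**
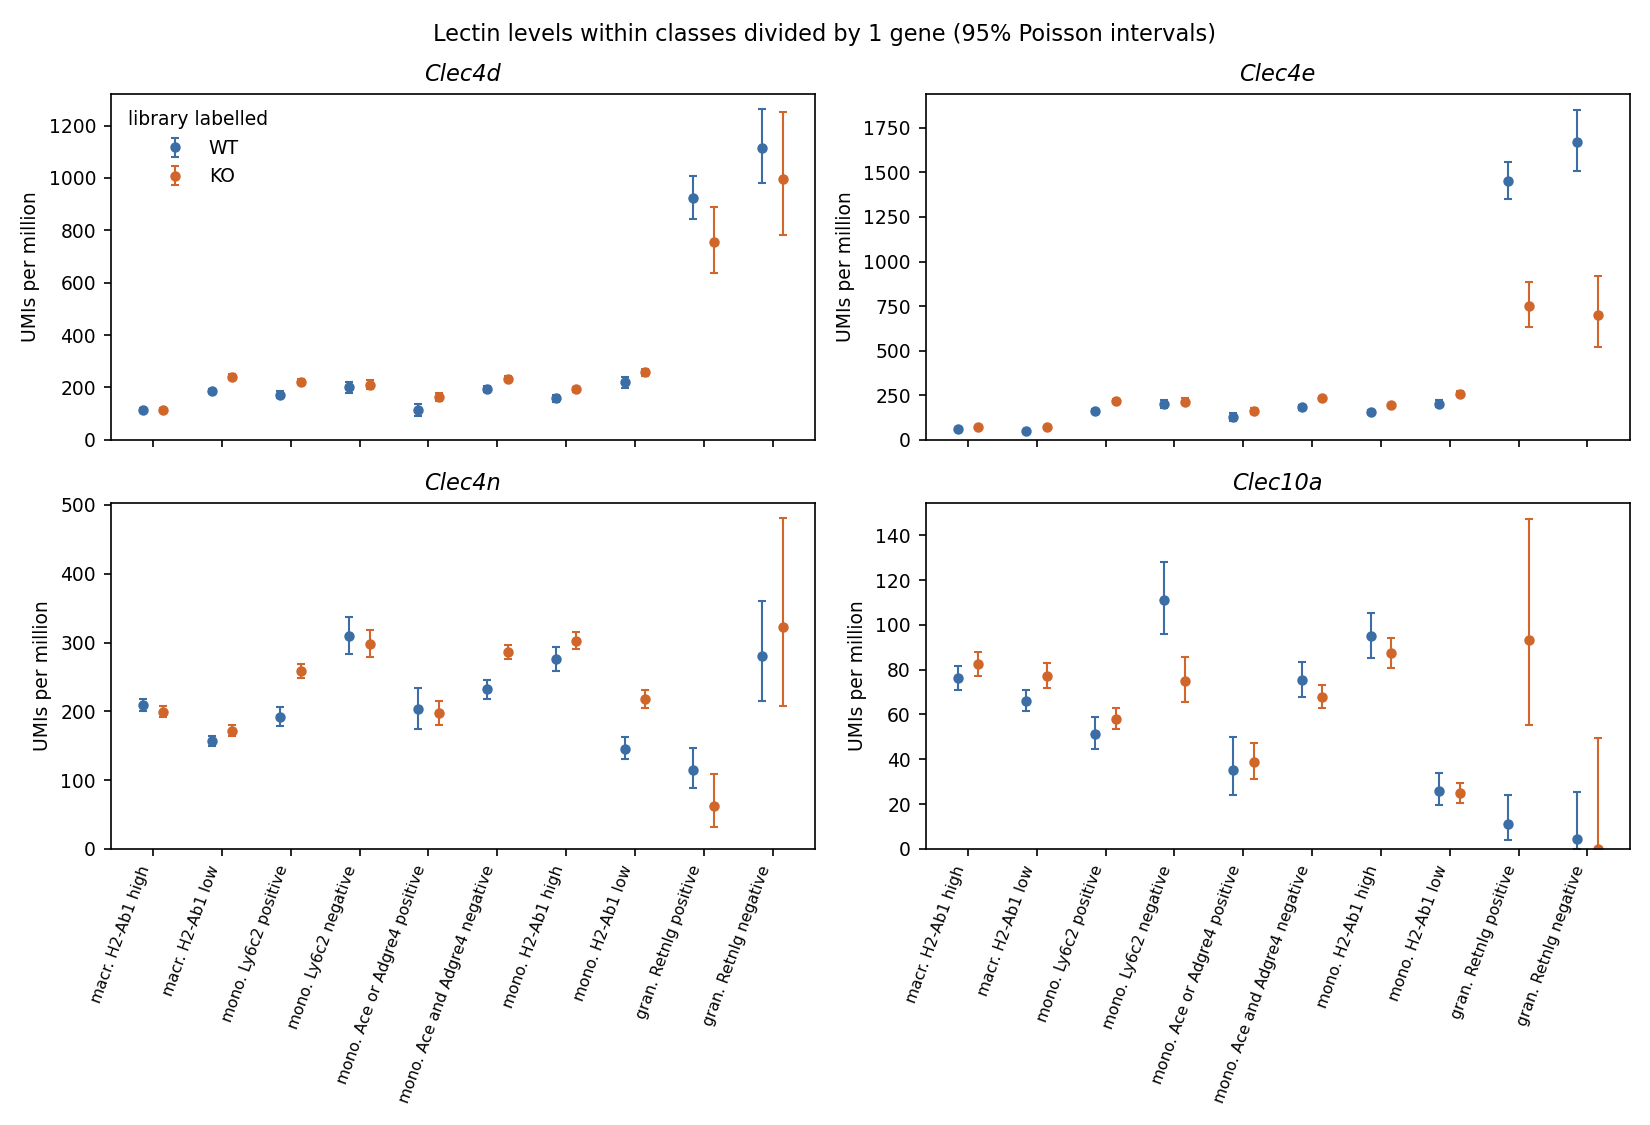
Levels of Clec4d, Clec4e, Clec4n and Clec10a in CPM (linear axes from 0) are shown for macrophage-like (macr.), monocyte-like (mono.) and granulocyte-like (gran.) cells divided by the gene named on the horizontal axis, for the libraries labelled WT (blue) and KO (orange) with 95% Poisson intervals. Clec4e is lower in the library labelled KO both with Retnlg (1452 and 750 CPM) and without it (1673 and 700 CPM).

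Clec9a and Clec10a were within counting error in the dendritic cell classes where they were highest. The log2 ratio of Clec9a in cDC1-like cells was 0.19 (-0.09 to 0.47). That of Clec10a was -0.12 (-0.35 to 0.11) in cDC2-like and 0.17 (-0.17 to 0.52) in plasmacytoid DC-like cells. Some of these values were not stable. With levels from thinned counts Clec9a was at -0.43 in cDC1-like cells. With classes assigned on thinned counts, which left 14 and 9 cDC2-like cells, Clec10a was at 1.92 in them. Clec12a was at 0.14 (-0.13 to 0.42) in cDC1-like and -0.45 (-1.01 to 0.11) in plasmacytoid DC-like cells, where these intervals leave room for a difference. In cDC1-like cells 1 of the 9 lectins was past 1.5-fold, beside 12.5% of 7498 genes in either direction and 5.44% lower. This was Clec4d, with 113 and 58 UMIs and a log2 ratio of -0.61. A single cell labelled WT held 23 of its UMIs, and without the cell with the most UMIs in each library the log2 ratio was -0.47, within the fold. Clec4n, at -0.52 (-1.02 to -0.04), was lower within the fold. In this class the summed granulocyte markers were 745 CPM labelled WT and 114 CPM labelled KO, with no marker at 0, and their part was not tested. None of the 6 lectins with enough UMIs was past the fold in cDC2-like cells, beside 14.2% of genes. Clec4d fell short of the minimum there, with 2 and 27 UMIs (2.69 and 33.2 CPM), and 11 of the 27 came from 1 cell. The granulocyte markers summed to 234 and 1074 CPM in cDC2-like cells, and their part was not tested. In mature DC-like cells, which have taken up the Ccr7 programme of migration to lymph nodes, 3 of 5 were higher, beside 11.4% of 4949 genes in that direction and 16.2% in either. Clec4n had 7 and 37 UMIs (10.1 and 40.4 CPM), Clec12a 15 and 44 UMIs (21.7 and 48.0 CPM) and Clec4a1 18 and 43 UMIs (26.0 and 46.9 CPM). At these counts only few cells were involved, since 9.26% of mature DC-like cells labelled KO held a Clec4n UMI. In this class the macrophage markers summed to 403 and 406 CPM, the monocyte markers to 348 and 370 CPM, the cDC1 markers to 724 and 971 CPM, the cDC2 markers to 1067 and 833 CPM and the granulocyte markers to 225 and 134 CPM, with no marker of these lists at 0, and their part was not tested. In comparison, T or NK-like cells held 24.8 and 21.6 CPM of Clec4n, 14.7 and 13.2 CPM of Clec12a and 19.4 and 15.6 CPM of Clec4a1. The mature DC-like levels labelled WT of all 3 genes had intervals that overlapped with this background, and that of Clec4n was the lower of the 2 values. With classes assigned on thinned counts, the log2 ratio of Clec12a stayed at 1.17 and those of Clec4n and Clec4a1 turned to -0.46 and -0.31.

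In T or NK-like cells 2 of 8 lectins were past the fold and lower, beside 8.15% of 9416 genes in either direction and 3.77% in the lower one. They were Clec4e, at 12.9 and 7.497 CPM, and Clec10a, at 9.33 and 5.998 CPM with an interval of the ratio that included 0. T or NK-like cells were themselves taken here as background, so that level cannot judge these 2 values. In melanoma-like cells Clec4e was at 2.04 and 1.08 CPM and Clec10a at 2.2 and 1.44 CPM. In plasmacytoid DC-like cells neither of the 2 lectins with enough UMIs was past the fold, beside 16.2% of genes.

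The cell classes that supplied the molecules differed between the libraries. Of all Clec4e UMIs in kept cells, granulocyte-like cells gave 27.6% in the library labelled WT and 3.85% in that labelled KO, and monocyte-like cells gave 24.0% and 54.1%. For Clec4d the granulocyte-like share was 12.1% and 2.91%. These shares combine the level in a class with its number of cells, and granulocyte-like cells made up 8.97% and 2.72% of kept cells and monocyte-like cells 18.9% and 34.0%. The sort, the pooling of mice and the gate can also set these numbers. Of Clec12a UMIs 78.5% and 66.9% came from macrophage-like cells, and of Clec9a UMIs 67.2% and 60.3% came from cDC1-like cells.

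Clec4d and Clec4e were also compared within single cells at 1000 UMIs. Among monocyte-like cells labelled WT, 32.3% of the 130 cells with a Clec4d UMI also held Clec4e, against 12.3% of the 918 cells without one. In the library labelled KO the shares were 31.0% and 15.2%. In macrophage-like cells they were 7.63% and 4.70% labelled WT, with overlapping intervals, and 12.7% and 6.23% labelled KO. In granulocyte-like cells they were 58.8% and 54.3% labelled WT and 56.4% and 37.1% labelled KO, with overlapping intervals in both libraries. Sharing was not particular to this pair. Of monocyte-like cells with and without a Clec4n UMI, 23.7% and 10.5% labelled WT and 26.1% and 14.2% labelled KO held Clec4d. In macrophage-like cells these shares were 23.8% and 11.4% labelled WT and 22.65% and 12.8% labelled KO, with intervals apart in both libraries. Such shares describe cells of 1 library and are no test between animals.

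Over 9 classes in 2 libraries, 18 points in all, the levels of the lectins were correlated as log2(CPM + 1). Pearson's r was 0.94 between Clec4d and Clec4e, 0.93 between Clec4a1 and Clec4a2 and 0.93 between Clec4a2 and Clec4n. Clec9a was apart from the 6 lectins of the Clec4 stretch, with r from -0.10 to 0.18. Clec10a, also highest in dendritic cell classes, had an r of 0.32 with Clec9a, below its r of 0.69 with Clec12a and 0.66 with Clec4a2. Clec4n had an r of 0.76 with Clec4e and of 0.75 with Clec4a3. Clec12a, the neighbour of Clec9a, had an r of 0.40 with it and of 0.71 with Clec4a2. Among 4921 other genes with at least 50 CPM in a class of each library, the closest to Clec4e was Ptgs2 (0.968), the inducible prostaglandin synthase, followed by Tnfaip2 (0.959). Clec4d was closest to Rab20 (0.970) and Trem3 (0.941), Clec4n to Tnfrsf1a (0.958) and Ralb (0.947), and Clec10a to the integrin gene Itgax (0.940) and to Nptn (0.926). Clec12a was closest to the lysosomal genes Psap (0.942) and Grn (0.930), Clec4a1 to Nupr1 (0.947) and Arf1 (0.939), and Clec4a2 to Znhit1 (0.964) and Arf1 (0.963). Clec4a3 was closest to Slc35f6 (0.923) and the fibronectin gene Fn1 (0.913), and Clec9a, with the lowest values, to Txndc15 (0.836) and Myo18a (0.835). The points of a library share their depth and free RNA, so r is a description.

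**Figure D5:**
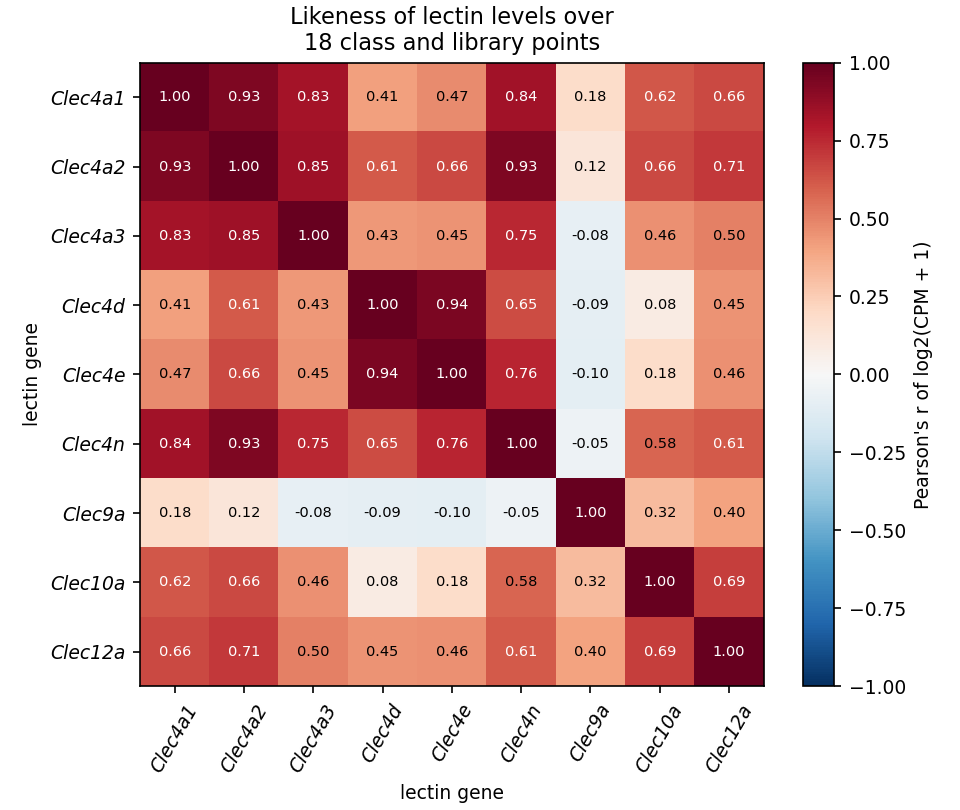
Each square gives Pearson's r between the levels of 2 lectins, as log2(CPM + 1), over 18 points (9 cell classes in 2 libraries), with red for positive and blue for negative values. Clec4d and Clec4e form a pair (0.94), Clec4a1, Clec4a2, Clec4a3 and Clec4n form a block (0.75 to 0.93), and Clec9a is near 0 with the Clec4 genes.

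The partners of these receptors were taken from lists of genes by role. Of 15 adaptors, kinases and phosphatases of lectin signalling, all 15 had enough UMIs in macrophage-like and monocyte-like cells, and 1 was past 1.5-fold in each, beside the shares of all genes given above. It was Malt1, a paracaspase that acts downstream of Card9, at 24.1 and 36.4 CPM in macrophage-like and 59.6 and 92.6 CPM in monocyte-like cells. In granulocyte-like cells none of 13 was. Syk was at 121 and 129 CPM in macrophage-like cells and 480 and 460 CPM in granulocyte-like cells, and the adaptor Fcer1g at 3577 and 3335 CPM and 3225 and 2475 CPM, and in granulocyte-like cells their log2 ratios were -0.06 and -0.38, against -1.04 for Clec4e. Of 10 genes that Syk and Card9 can induce, 5 had enough UMIs in granulocyte-like cells and 4 of them were lower past 1.5-fold in the library labelled KO, beside 8.7% of all genes in that class. The neutrophil chemokine Cxcl2 was at 15660 and 5544 CPM, Ccl3 at 3077 and 1559 CPM, Tnf at 174 and 89.7 CPM and Cxcl1 at 36.8 and 18.7 CPM, the last from 28 and 5 UMIs with an interval that included 0. Il1b, the interleukin gene, was level at 5655 and 5533 CPM. In macrophage-like cells 3 of 8 were lower, beside 3.28% of all genes, Cxcl2 at 397 and 217 CPM, Cxcl1 at 7.55 and 4.35 CPM and Il12b, with an interval that included 0, at 1.52 and 0.946 CPM. In monocyte-like cells Cxcl2 was lower at 763 and 330 CPM, the 1 of 8 beside 3.26% of all genes, and 2 of 8, Il6 and Il10, were higher beside 4.71%, with 4 and 40 and with 11 and 40 UMIs, the interval of Il10 including 0. Cxcl2 was highest in granulocyte-like cells, and in macrophage-like and monocyte-like cells it was lower together with the summed granulocyte markers (1506 and 592 CPM, and 1426 and 659 CPM), whose part was not tested. Of the other 15 C-type lectins, 9 had enough UMIs in macrophage-like cells, and 2 of them were past the fold beside 6.32% of all genes. Clec1b, whose counts are uncertain because of its overlap with Clec9a, was higher (18 and 46 UMIs), and Ly75, an endocytic receptor, was lower (81 and 46 UMIs). Mrc1, the mannose receptor, was at 573 and 496 CPM, Clec4b1 at 75.7 and 53.2 CPM and Mgl2, the paralog next to Clec10a, at 68.4 and 86.7 CPM, all within the fold. Clec1a (8 and 34 UMIs, interval including 0) was the 1 of 8 past the fold in monocyte-like cells, beside 7.98% of all genes. In granulocyte-like cells Olr1, a receptor for oxidised lipoprotein, was the 1 of 4 past it, with 46 and 5 UMIs, beside 23.3% of all genes in that class.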

How the data were processed

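Single-cell libraries were made by the authors with Chromium 3' v3 chemistry, 1 per genotype. The submitters' notes and the file headers name Cell Ranger (matrix version 4.0.0) and mm10, and the authors deposited 1 matrix of raw UMI counts (31053 genes, 14341 barcodes) and a table of each barcode's library. No annotation of cell types was used. The filter in the study's methods (at least 200 genes and at most 10% mitochondrial UMIs per cell) was applied here.

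Each cell took the class with the highest mean of 8 marker levels. A marker level was UMIs per 10000 divided by the gene's 0.9 quantile among cells with a UMI and capped at 1. A class needed at least 3 markers and a mean of 0.1, and cDC1-like and cDC2-like cells also needed a UMI of Xcr1, Gcsam or Snx22 and of Cd209a, Flt3 or Zbtb46. Cells with at least 4 markers of another lineage above 0.5 of their own mean were set aside as mixed (180 in each library), which stands in for a doublet caller. Another 637 cells labelled WT and 1026 labelled KO stayed unnamed, with 241 and 147 CPM of Clec4e. A second class came within 80% of the first in 284 macrophage-like, 286 monocyte-like and 31 of 214 cDC2-like cells. These thresholds were set after the data were seen, the names were rebuilt and may differ from the study's, and some doublets remain.

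UMIs were summed per class and library and divided by the class total (CPM). Ratios carry no pseudocount. The members and lists were chosen with earlier results of these data known. Named genes were all members, 3 lists of lectin partners and, for each member, the 2 genes with the highest Pearson correlation of log2(CPM + 1). Positions came from GENCODE (GRCm38), matched by identifier for 30934 of 31053 genes, and promoters from RefSeq on GRCm38.p6, which held 8 of the 10 members and were not used here for Clec4n and Clec10a. The ratio code was tested on simulated data. Python 3.11.15, numpy 2.4.6, scipy 1.17.1 and pandas 2.3.3 were used. A further division of macrophage-like cells, and the alternative that weights its sub-groups equally, is not reported here.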

Additional observations from a re-analysis of the deposited data

Results flagged for a closer look

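Clec4e was lower in the library labelled KO in granulocyte-like cells and higher in macrophage-like and monocyte-like cells. Its log2 ratio of KO to WT was larger by 1.40 in macrophage-like and by 1.38 in monocyte-like than in granulocyte-like cells. Clec4d was lower in cDC1-like cells and higher in macrophage-like and monocyte-like cells, with log2 ratios larger by 0.81 and 0.89 than in cDC1-like cells. Clec4a1 was higher in mature DC-like and lower in macrophage-like cells, a difference of 1.01, and Clec4n was higher in mature DC-like and lower in cDC1-like cells, a difference of 2.52. These differences drew attention because the counting intervals of the 2 classes lie on opposite sides of 0 and at least 1 of the ratios is past 1.5-fold. With 1 library per genotype they were not tested. Clec4d in cDC1-like cells rests on 58 UMIs labelled KO and on 113 labelled WT, of which 23 came from 1 cell, and Clec4n in mature DC-like cells on 7 and 37 UMIs. With classes assigned on thinned counts, Clec4a1 and Clec4n in mature DC-like cells turned to -0.31 and -0.46. Intervals on opposite sides of 0 with both ratios within 1.5-fold were also seen, among others for Clec4d in granulocyte-like cells (-0.47 to -0.03) against monocyte-like cells (0.17 to 0.38) and for Clec4n in cDC1-like cells (-1.02 to -0.04) against monocyte-like cells (0.15 to 0.33).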

How the results depend on the processing

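No paired analysis was possible because there was 1 library per genotype, and no library could be left out. Among the log2 ratios of single lectins under alternatives, 458 stayed within the counting interval of the main value, 38 lay outside it and 2 changed sign after being past the fold, both with classes assigned on thinned counts in mature DC-like cells (Clec4a1 at -0.31 and Clec4n at -0.46). That alternative left 57 and 54 cDC1-like and 14 and 9 cDC2-like cells. The log2 ratio of Clec4e in granulocyte-like cells ranged from -1.16 to -0.86 over 12 alternatives, in macrophage-like cells from 0.28 to 0.53 and in monocyte-like cells from 0.27 to 0.42. That of Clec4d ranged from 0.09 to 0.21 in macrophage-like and from 0.21 to 0.39 in monocyte-like cells. The number of lectins past 1.5-fold moved under several alternatives. In macrophage-like cells it was 1 in place of 0 without the 5% of cells with the most UMIs, with the gate on thinned counts, with levels from thinned counts and with the mean of per-cell CPM, and in monocyte-like cells it was 1 in place of 0 with levels from thinned counts. In granulocyte-like cells it was 2 in place of 1 with the stricter filter on cells (500 genes, 5% mitochondrial UMIs), levels from thinned counts, the mean of per-cell CPM, equal weight of sub-groups, and without the cell with most UMIs of the gene, and 3 with a minimum of 10 UMIs. In cDC1-like cells it was 2 in place of 1 with mixed cells kept and with the mean of per-cell CPM, 4 without the 5% of cells with the most UMIs and with levels from thinned counts, and 5 with the gate on thinned counts. In cDC2-like cells it was 3 in place of 0 with the gate on thinned counts, 2 with levels from thinned counts and 1 with a minimum of 10 UMIs. In mature DC-like cells it was 1 in place of 3 with levels from thinned counts and 6 with a minimum of 10 UMIs. In macrophage-like and monocyte-like cells the lectin that passed the fold was Clec9a each time. It had 57 and 64 UMIs in the former class and 9 and 22 in the latter. Its log2 ratios past the fold were 0.61 to 1.29 in macrophage-like cells and -1.37 in monocyte-like cells. The cause of the moves in these numbers was not tested. Leaving out the cell with most UMIs and a looser gate of 2 markers were chosen after seeing the data. Pooled mice, counting error and the few dendritic cells limit every difference between the libraries.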
